A study of Homo sapiens with 2 samples.

Results

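The constitutive subunits of the proteasome were described in OVCAR5 cells, an established ovarian carcinoma line. The members were all genes whose symbol is PSMA, PSMB, PSMC or PSMD followed by a number only, without the interferon-inducible PSMB8, PSMB9 and PSMB10. This gave 36 of the 36601 genes in the matrix: 8 subunits of the alpha ring, 8 of the beta ring, 6 ATPases, 11 other subunits of the regulatory particle and 3 assembly factors that carry PSMD names. Of these, 34 had at least 2000 unique molecular identifiers (UMIs, tags that each mark a single captured transcript) in the cells used. The other two, PSMA8 and PSMB11, are the testis and thymus forms of an alpha and a beta subunit, and held 0 UMIs and 1 UMI.

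The proteasome degrades proteins that carry ubiquitin chains. Its core particle is a barrel whose outer alpha rings gate the entry and whose inner beta rings hold the proteolytic sites, and a regulatory particle on the end of the barrel recognises, unfolds and threads the substrate. In cells that sense interferon-gamma, the catalytic subunits PSMB8, PSMB9 and PSMB10 replace PSMB5, PSMB6 and PSMB7 in newly built core particles, which changes the peptides made for presentation on MHC class I.

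The cells carried a CFP reporter for interferon-gamma sensing and were profiled as 1 pool, with a 3′ gene expression library and a hashtag library, on a droplet platform. The labels name 18 conditions. Cultures without interferon-gamma and cultures with 1, 10 or 100 ng/ml of it were taken after 2, 6, 12 and 24 h, and the 24 h cultures without and with 100 ng/ml were also frozen. Cells carried pairs of the 8 antibody hashtags, and 6114 of 7201 filtered cells fell into 18 pairs, written here by the numbers of their hashtags (1+5 for hashtags 1 and 5). No source used here ties a hashtag pair to a condition, so pairs are described and no dose, time or freezing comparison is made. The making of the reporter line, and whether it is a single clone, are not described in these sources.

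Pairs held 166 to 493 cells and 5392185 to 16184801 gene UMIs. Median depth per cell was 27824 to 32945 UMIs, and the median mitochondrial share was 10.5 to 12.4%. A level is given in CPM, the UMIs of a gene or group per 1000000 gene UMIs of the pair. Each pair is a set of cells of 1 pool with no replicate, so the 95% intervals cover counting error only, and no test between pairs was possible. Of the epithelial and ovarian markers, KRT18 had a UMI in 99.9%, KRT8 in 99.4%, KRT7 in 94.2% and KRT19 in 80.8% of paired cells. EPCAM was found in 68%, CDH1 in 1.5% and PAX8 in 10.2%, while WT1 (10 UMIs) and MUC16 (23 UMIs) were nearly absent. Of the mesenchymal markers, VIM had a UMI in 99.75% and COL1A1 in 2.03%, while COL1A2, DCN and PDGFRB held at most 1 UMI each. The endothelial markers PECAM1, VWF and CDH5 were found in at most 0.72%. Of the T cell and other immune markers, CD3E, IFNG and TYROBP were at 0 UMIs and PTPRC at 2, CD3D, CD4, CD8A, CD79A and LYZ had a UMI in at most 1.33% of paired cells, CD14 in 12.5% and CD68 in 52.4%. Free RNA in the droplets was not subtracted.

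Promoter windows of 3 members are printed, chosen by the ratio of their highest to their lowest pair level. This ratio was largest for PSMA5 and PSMA4 and smallest for PSMB5. They run from 250 bases before to 50 bases after a RefSeq transcription start on GRCh38.p14, 5′ to 3′ on the strand of the gene: chr1:109426399-109426698, minus strand, for PSMA5, chr15:78540155-78540454, plus strand, for the most upstream of 3 starts of PSMA4, and chr14:23035171-23035470, minus strand, for the upstream one of 2 starts of PSMB5. Capitals mark matches on either strand to CCAAT, the CCAAT box, in PSMA5 and PSMB5, and to GAAANNGAA, the core of the interferon-stimulated response element, in PSMA4.
PSMA5: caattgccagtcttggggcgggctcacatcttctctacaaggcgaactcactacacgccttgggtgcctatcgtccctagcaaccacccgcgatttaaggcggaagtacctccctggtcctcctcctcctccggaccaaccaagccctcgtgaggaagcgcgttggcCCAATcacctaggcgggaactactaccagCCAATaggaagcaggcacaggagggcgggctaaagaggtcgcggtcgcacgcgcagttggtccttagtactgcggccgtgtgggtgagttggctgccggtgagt
PSMA4: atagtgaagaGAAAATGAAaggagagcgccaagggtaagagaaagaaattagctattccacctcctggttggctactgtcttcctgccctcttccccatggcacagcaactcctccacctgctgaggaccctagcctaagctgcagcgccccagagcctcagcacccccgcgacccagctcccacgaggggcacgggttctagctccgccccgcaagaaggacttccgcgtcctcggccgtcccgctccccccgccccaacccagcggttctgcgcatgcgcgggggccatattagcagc
PSMB5: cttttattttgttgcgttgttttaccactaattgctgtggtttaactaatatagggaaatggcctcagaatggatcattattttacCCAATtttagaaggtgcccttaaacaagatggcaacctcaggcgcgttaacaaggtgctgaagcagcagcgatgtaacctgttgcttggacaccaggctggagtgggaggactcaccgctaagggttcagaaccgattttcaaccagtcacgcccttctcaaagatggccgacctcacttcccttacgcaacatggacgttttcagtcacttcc

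RefSeq windows were found for 31 of the 36 members, 37 windows in all. On both strands, GAAANNGAA was present in 3 of these windows (8.11%), those of PSMA4, PSMB4 and PSMC2, against 8.11% of all 35116 windows. The gamma-activated site TTCNNNGAA was present in 6 windows (16.2%, against 7.66%), of PSMA2, PSMA8, PSMB5, PSMC4, PSMD2 and PSMD3. The letters TGACNNNGC, the core of the antioxidant response element that NFE2L1 and NFE2L2 bind, were found in 9 windows (24.3%, against 13.3%), and CCAAT in 17 (45.9%, against 34.6%). The PSMA5 window held 2 CCAAT matches, and the PSMB5 window shown held 1. The second PSMB5 start had 2 matches to TTCNNNGAA in its window. These are matches of letters only, and windows of neighbouring starts of a gene can overlap.

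The 5 members that varied most between hashtag pairs were subunits of the alpha ring. The span of a gene, its highest over its lowest pair level, reached 1.5-fold in 11 of 34 members, while 53.7% of the 7566 genes with at least 2000 UMIs did so. Of the 34 members, 16 spanned under 1.3-fold. The largest of these spans, that of PSMD14 (1.29), was larger than that of 15.4% of the genes with at least 2000 UMIs. The next member up, PSMD1 (1.31), was above 18.8% of them. Spans of genes with few counts hold more counting noise. Among genes with at least 20000 UMIs, 10 of 28 members reached 1.5-fold against 26.7% of 1433 genes. The median span was 1.34 over the members against 1.53 over all genes at the lower minimum, and 1.34 against 1.33 at the higher. The median variation between pairs beyond counting noise, as a coefficient of variation, was 7.91% for members and 10.3% for all genes at the lower minimum, and 9.41% against 7.96% at the higher.

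**Figure D1:**
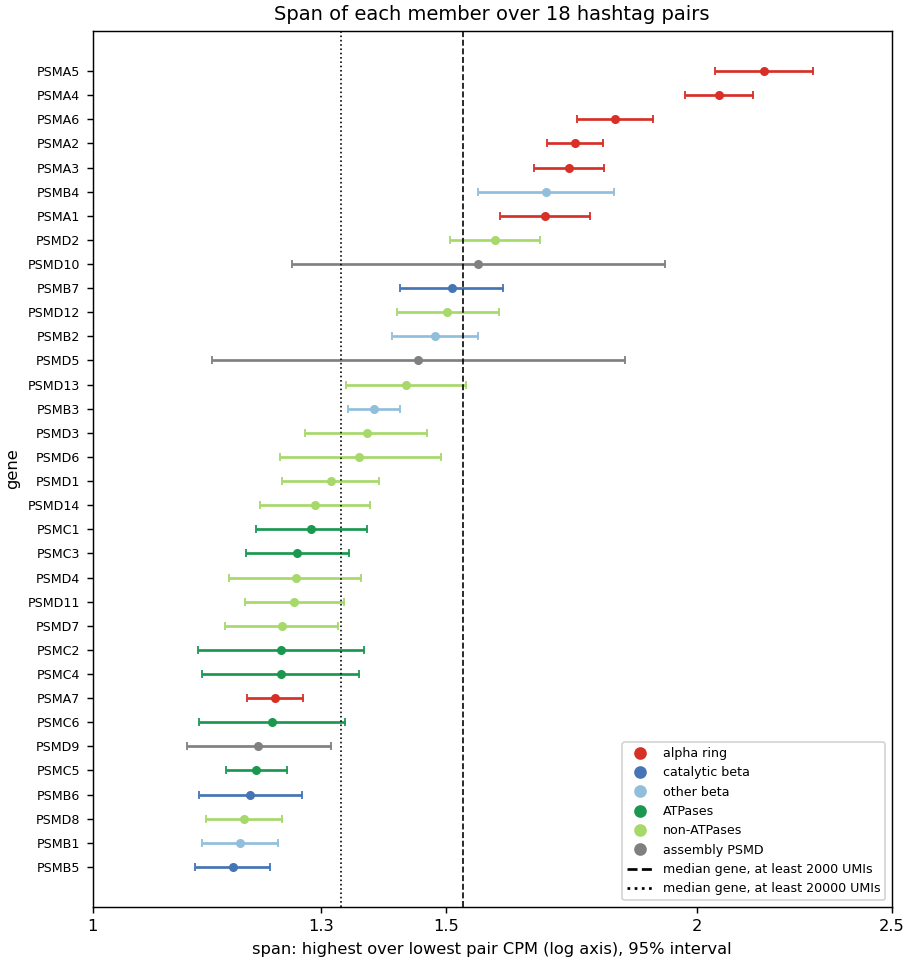
Span of each of the 34 members, the highest over the lowest of 18 hashtag pairs (log axis), with the 95% counting interval and coloured by role. The 6 members with the largest spans apart from PSMB4 are alpha subunits (1.68 to 2.16), and the dashed and dotted lines mark the median gene at both count minimums (1.53 and 1.33).

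The members that reached 1.5-fold were spread unevenly over the roles. In the alpha ring 6 of 7 measured subunits reached 1.5-fold, and the single exception was PSMA7. In the beta ring PSMB4 (1.68) and PSMB7 (1.51) did so. None of the 6 ATPases did, and of the 11 other regulatory subunits PSMD2 (1.59) and PSMD12 (from 189.8 to 285.1 CPM) did. Of the assembly factors PSMD10 did (1.56), on 4229 UMIs and with a wide interval (1.26 to 1.93). PSMD12 and PSMB7 lay just inside the threshold and PSMB2 (1.48) just outside it. With the second highest over the second lowest pair, a comparison chosen after seeing the data, 7 of 34 members reached 1.5-fold, against 35.5% of all genes. These were PSMA1 to PSMA6 and PSMB4. A stricter filter on cells (at most 10% mitochondrial UMIs, 2000 genes or more) left 6 pairs. Of the 32 members counted there, PSMA3, PSMA4, PSMA5 and PSMA6 alone reached 1.5-fold, and no share over all genes is given for this filter.

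Summed over its members, the alpha ring had a level of 3025 CPM (2987 to 3064) in pair 1+5, a median of 3757 and a highest level of 4684 in pair 6+8, a span of 1.55 (1.53 to 1.57). The pairs 2+5, 3+7, 4+7, 5+6, 5+8, 6+8 and 7+8 were the 7 highest, between 4243 and 4684 CPM. The median mitochondrial share was 11.1% in pair 1+5 and 12.2% in pair 6+8. Over 4 equal groups of cells ranked by mitochondrial share the alpha sum moved from 3926 CPM in the lowest to 3753 in the highest. The median mitochondrial share of these groups was 8.12% and 14.5%. Mitochondrial UMIs are part of the CPM total, so a larger share lowers the CPM of other genes by itself. The groups also pool cells of all pairs, so differences between pairs are mixed in. The part of mitochondrial share in the difference between pairs was not tested.

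Positions of genes are those of GENCODE v29 on GRCh38. PSMA5 (ENSG00000143106, chr1:109399031-109426427), which forms part of the gated ring, was lowest at 200.0 CPM in pair 1+5, had a median of 295.8 and was highest at 431.9 in pair 6+8. Its span was 2.16 (2.04 to 2.28), the largest among the members and larger than that of 86.7% of the genes with at least 2000 UMIs. PSMA4 (ENSG00000041357, chr15:78540405-78552419) ran from 369.6 CPM in pair 2+4 through a median of 487.7 to 757.9 in pair 7+8, a span of 2.05 (1.97 to 2.13). The 7 highest pairs of both genes were the 7 highest of the alpha sum.

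PSMA6 (ENSG00000100902, chr14:35278633-35317493) was lowest at 356.9 CPM in pair 1+5, had a median of 502.6 and reached 649.6 in pair 7+8, a span of 1.82 (1.74 to 1.90). PSMA2 (ENSG00000106588, chr7:42916857-42932223) ran from 542.6 CPM in pair 1+2 through 690.0 to 943.3 in pair 6+8, a span of 1.74 (1.68 to 1.80). The levels of PSMA3 (ENSG00000100567, chr14:58244831-58272012) were 371.3 CPM in pair 1+2, 538.4 in the median pair and 640.7 in pair 3+7, a span of 1.73 (1.66 to 1.80). All had their highest pair among the same 7. PSMA3 shares its locus with the antisense gene PSMA3-AS1, which held 6490 UMIs over all barcodes against 123604 for PSMA3, and no source used here says whether counting used strand. PSMA1, the remaining alpha subunit that reached 1.5-fold, spanned 1.68.

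PSMA7 followed the other alpha subunits in part. Its level was 854.4 CPM in pair 2+5, 955.8 in the median pair and 1053 in pair 3+5, a span of 1.23 (1.19 to 1.27). Pair 2+5, its lowest, was a pair in which PSMA4 (668.9 CPM) and PSMA5 (389.1 CPM) were high. In pair 7+8, the highest of PSMA4, PSMA7 held 930.4 CPM, below its own median. PSMA7 was also below its median in pair 5+8 (922.6 CPM) and near it in pair 6+8 (957.3 CPM). Its next highest pairs after 3+5 were 4+7 (1044 CPM), 3+7 (1038 CPM) and 5+6 (1032 CPM), which were also among the 7 highest of the alpha sum.

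**Figure D2:**
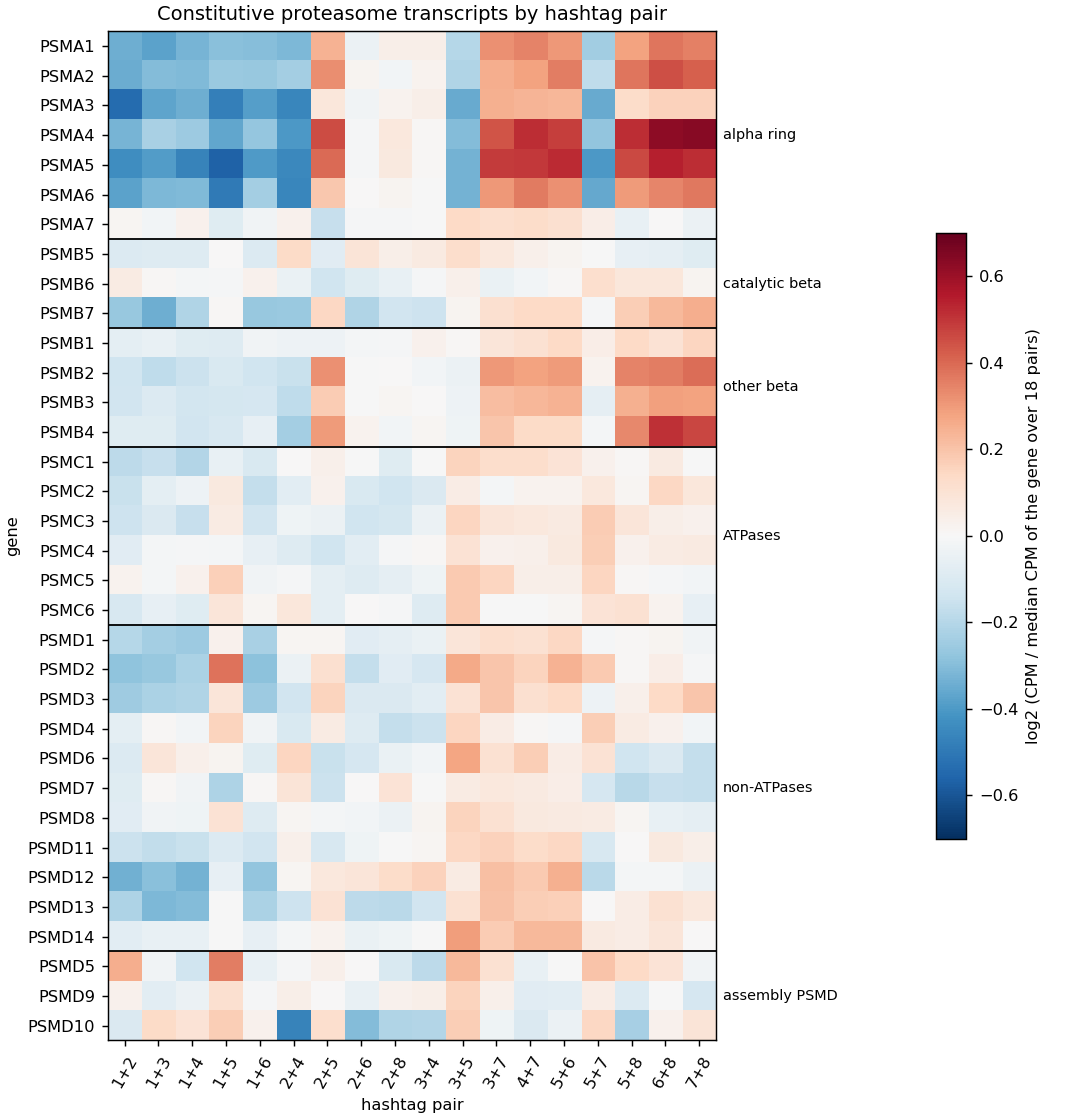
Level of each of the 34 members in each of the 18 hashtag pairs, as log2 of the CPM over the median CPM of that gene, ordered by role. Alpha subunits other than PSMA7 are raised (red) in pairs 2+5, 3+7, 4+7, 5+6, 5+8, 6+8 and 7+8, with PSMB2, PSMB3, PSMB4 and PSMB7. The regulatory subunits PSMD3, PSMD13 and PSMD14 also lie above their medians in all of these pairs, while the ATPases stay near their medians (spans 1.21 to 1.28).

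Of the constitutive catalytic subunits PSMB5 and PSMB6 differed little between pairs and PSMB7 more. PSMB5 (ENSG00000100804, chr14:23016543-23035230), the chymotrypsin-like subunit, had the smallest span of all members: 406.3 CPM in pair 1+6, a median of 433.9 and 476.9 in pair 2+4, a span of 1.17 (1.12 to 1.23). PSMB6 (ENSG00000142507, chr17:4796144-4798503), the caspase-like subunit, ran from 298.6 CPM in pair 2+5 through 329.3 to 357.8 in pair 5+7, a span of 1.20 (1.13 to 1.27). PSMB7 (ENSG00000136930, chr9:124353466-124415444), the trypsin-like subunit, ran from 184.2 CPM in pair 1+3 through 233.5 to 278.0 in pair 7+8, a span of 1.51 (1.42 to 1.60), and its 7 highest pairs were those of the alpha sum. Their sum lay between 922.7 CPM (pair 1+3) and 1046 (pair 3+5), a span of 1.13.

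Each of these subunits has an inducible partner that takes its place in the core particle, and the partners varied far more. PSMB8, which replaces PSMB5, spanned 8.73-fold, PSMB9, which replaces PSMB6, 24.4-fold, and PSMB10, which replaces PSMB7, 4.85-fold. Of the UMIs of PSMB8 and PSMB5 together, PSMB8 held 14.7% (exact 95% binomial interval 13.6 to 15.8%) in pair 1+5, 38.7% in the median pair and 61.4% (60.5 to 62.3%) in pair 7+8. The share of PSMB9 in its couple ran from 13.0% (11.8 to 14.2%) in pair 1+5 through 57.3% to 78.2% (77.6 to 78.8%) in pair 7+8. For PSMB10 it ran from 26.9% (25.2 to 28.7%) in pair 1+5 through 49.3% to 61.0% (59.8 to 62.2%) in pair 5+8. The inducible partner held over 50% in 7 pairs for PSMB8, 10 for PSMB9 and 7 for PSMB10. UMIs of 3′ libraries are not scaled to gene length, and a share of UMIs says nothing of which protein is built in.

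**Figure D3:**
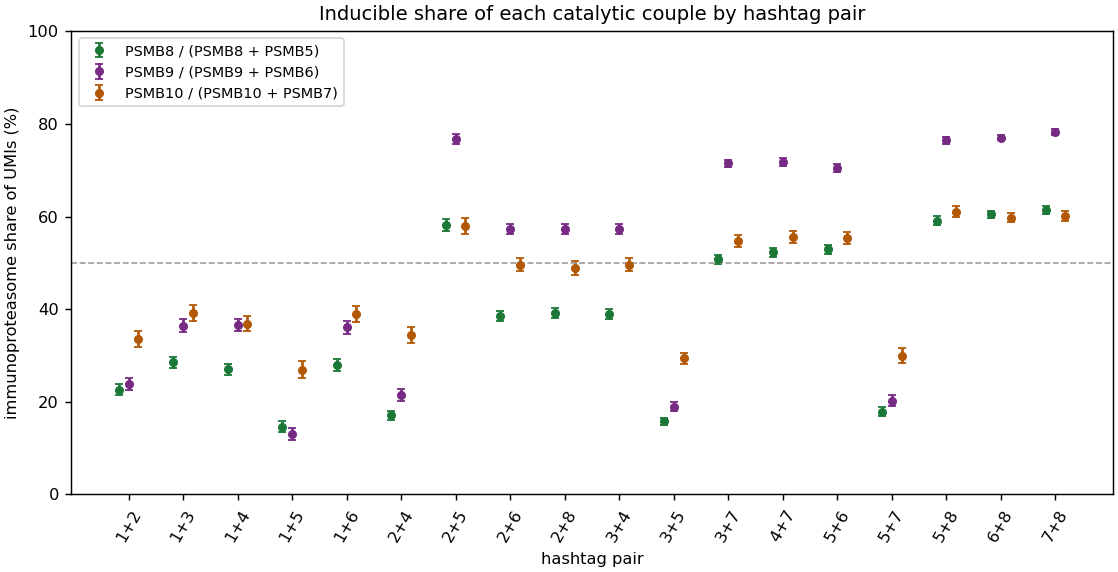
Share of UMIs held by the inducible subunit of each catalytic couple in each hashtag pair, in percent, with exact 95% binomial intervals and a dashed line at 50%. PSMB9 passes the line in 10 pairs, PSMB8 and PSMB10 in 7 each, and each share is lowest in pair 1+5.

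The sum of the beta subunits without a proteolytic site spanned 1.34 (1.31 to 1.37), more than the catalytic sum and less than the alpha sum, from 1477 CPM in pair 2+4 through 1624 to 1974 in pair 7+8. PSMB4 spanned 1.68, PSMB2 1.48 and PSMB3 1.38, each highest in pair 6+8 or 7+8. PSMB1 (ENSG00000008018, chr6:170535117-170553341) was nearly level: 423.1 CPM in pair 1+5, 451.3 in the median pair and 501.1 in pair 7+8, a span of 1.18 (1.13 to 1.24).

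In the regulatory particle the 6 ATPases, the ring that unfolds substrates, had spans between 1.21 (PSMC5) and 1.28 (PSMC1). Their sum ran from 1071 CPM in pair 2+6 to 1258 in pair 3+5, a span of 1.17 (1.15 to 1.20). PSMC2 overlaps DNAJC2 on the opposite strand and PSMC5 overlaps FTSJ3, so part of their counts could come from those genes if strand was not used.

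The other regulatory subunits spanned 1.19 to 1.59, and their sum ran from 2068 CPM in pair 1+2 through 2323 to 2594 in pair 3+5, a span of 1.25 (1.23 to 1.28). PSMD8 (ENSG00000099341, chr19:38374536-38383824), a lid subunit, was the most level, at 329.1 CPM in pair 1+6, 351.0 in the median pair and 391.6 in pair 3+5, a span of 1.19 (1.14 to 1.24). PSMD2, the large base subunit that docks ubiquitin shuttles, had the largest span in the particle. It was lowest at 283.6 CPM in pair 1+6, had a median of 346.1 and was highest at 449.8 in pair 1+5, the pair in which PSMA5, PSMA6 and the alpha sum were lowest. PSMD4, a ubiquitin receptor, spanned 1.26, and PSMD14, the deubiquitinase of the lid, 1.29. The assembly factors PSMD5, PSMD9 and PSMD10 summed to 119.0 to 142.2 CPM.

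Pairs 3+5, 6+8 and 7+8 most often held the highest level of a member. Pair 3+5 was the highest of 8 members, PSMA7, PSMC1, PSMC5, PSMC6, PSMD6, PSMD8, PSMD9 and PSMD14, and of 8.55% of all genes with at least 2000 UMIs. In pair 6+8 the highest levels of PSMA1, PSMA2, PSMA5, PSMB3, PSMB4 and PSMC2 were found, 6 members against 2.37% of all genes. Pair 7+8 was the highest of PSMA4, PSMA6, PSMB1, PSMB2 and PSMB7, 5 members against 5.52%. Of the 18 pairs, 9 held no member's highest level.

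The regulatory particle as a whole was lowest at 3144 CPM in pair 1+2, had a median of 3454 and was highest at 3852 in pair 3+5. The alpha sum divided by the regulatory sum was 0.832 in pair 1+5, 1.12 in the median pair and 1.34 in pair 7+8. Only the change of this ratio between pairs can be read, since its level depends on how well each gene is captured at its 3′ end. Pairs 3+5 and 7+8 show the contrast: the alpha sum was 3340 and 4639 CPM, the regulatory sum 3852 and 3449. These pairs also had the lowest and the highest median mitochondrial share, 10.5 and 12.4%. Over 4 equal groups of cells ranked by mitochondrial share the regulatory sum went from 3742 CPM in the lowest to 3175 in the highest. These CPM also hold mitochondrial UMIs in the total, and the groups pool cells of all pairs. The part of mitochondrial share in the regulatory sums of the pairs was not tested.

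**Figure D4:**
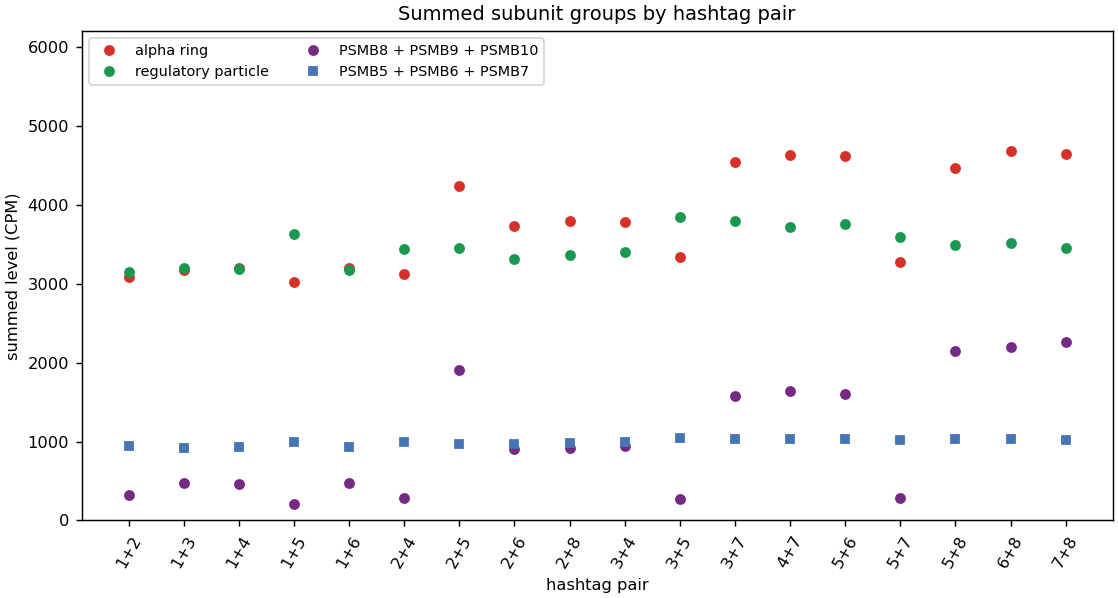
Summed level, in CPM, of the alpha ring, the regulatory particle, the constitutive catalytic subunits and the inducible catalytic subunits in each of the 18 hashtag pairs. The alpha sum runs from 3025 to 4684 CPM and the inducible sum from 210.1 to 2267, while the sum of PSMB5, PSMB6 and PSMB7 stays between 922.7 and 1046.

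Transcripts of most alpha and beta subunits were found in most cells. With each cell thinned to 10000 UMIs, which left out 158 of 6114 cells (5 to 19 per pair), a UMI was found in 99.9% of cells for PSMA7, 98.1% for PSMB5, 92.4% for PSMA5, 87.8% for PSMB7 and, lowest among the measured core subunits, 68% for PSMB4. Over the 34 members the median share was 88.3%, with 15 members at 90% or more, and the lowest were PSMD5 (13.7%) and PSMD10 (19.3%). Without thinning the median share was 97.8%. The share with a PSMA5 UMI was 82.6% in pair 1+2 and 98.3% in pair 7+8. No cell type that should lack these genes was in the pool. PSMA8 and PSMB11 had no UMI in the 5956 thinned cells, and a count of 0, taken as allowing up to 3, sets a limit of 0.0504% on cells with a UMI for each. Without thinning PSMB11 had 1 UMI.

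Between cells of the same pair, subunit sums of thinned cells were weakly related. The median Spearman rho over the 18 pairs was 0.249 between the alpha ring and the beta subunits without a proteolytic site (0.215 to 0.338), 0.191 between the alpha ring and the regulatory particle and 0.225 between ATPases and the other regulatory subunits. Against the inducible subunits it was 0.126 for the alpha ring, above 0 in 15 of 18 pairs, -0.0026 for the constitutive catalytic subunits and -0.0464 for the regulatory particle. All members against the heat shock and the housekeeping lists gave 0.311 and 0.289. These are descriptions over 5956 cells that share a library, and correlations this weak in sparse counts are no finding.

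The summed level of all members was 8809 CPM in pair 1+2, 9908 in the median pair and 11412 in pair 5+6, and members made up 1.01% of the gene UMIs of paired cells. Over 4 equal groups of cells ranked by depth it stayed between 9939 and 10196 CPM. From the lowest to the highest of these groups the regulatory sum went from 3280 to 3591 CPM and the alpha sum from 3867 to 3802. The part of depth in the differences between pairs was not tested. Over 4 groups ranked by mitochondrial share the sum of all members went from 10633 to 9595 CPM, and from 11506 to 11262 CPM once mitochondrial UMIs were taken out of the total.

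Other proteasome genes, from lists chosen by function, were read in the same way, beside the 53.7% of all genes that reached 1.5-fold. Of the activators and the inhibitor, 4 of 5 did. PSME1 and PSME2, which form the interferon-inducible cap of the core particle, spanned 4.01 and 6.54, from 257.5 to 1032 CPM and from 322.1 to 2105 CPM, both lowest in pair 1+5 and highest in pair 7+8. PSME3 spanned 1.52, PSME4 1.38 and the inhibitor PSMF1 1.54.

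Assembly chaperones reached 1.5-fold in 4 of 6 cases. POMP, which helps the beta ring mature, ran from 653.6 CPM in pair 1+2 through 887.8 to 1192 in pair 6+8, a span of 1.82, and PSMG1, PSMG4 and PAAF1 spanned 1.54 to 1.68. Of 7 measured proteins that bind the proteasome UCHL5 (1.61) and ECPAS (1.74) did so, while the receptor ADRM1 spanned 1.48 and SEM1 1.17.

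Of 6 measured genes listed as regulators of the proteasome or of its genes, 4 reached 1.5-fold: NFE2L1, NFE2L2, ZFAND5 (1.95) and ZFAND2A (1.52). NFE2L1, the transcription factor that raises proteasome genes when the proteasome is impaired, ran from 39.28 to 59.35 CPM, highest in pair 2+5. The related factor NFE2L2 spanned 2.24, from 107.2 CPM in pair 3+7 to 239.8 in pair 1+3. For scale, 2 of 10 measured housekeeping genes reached 1.5-fold, as did 14 of 14 genes of the G2/M phase, whose sum ran from 1713 CPM in pair 3+4 to 3152 in pair 1+5. Of the S phase genes 10 of 14 did, and their sum ran from 1039 CPM in pair 1+4 to 1508 in pair 3+5, the pair in which the regulatory sum was also highest. The part of cell cycle differences in the levels of the members was not tested.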

How the data were processed

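The deposited values are UMI counts per gene and barcode, and none is normalised. The authors made them with Cell Ranger: per the file headers version 5.0.1 was used, per the submitters' processing notes version 2.1.1 with GRCh38, and the discrepancy could not be settled. Barcodes under 500 genes or over 20% mitochondrial UMIs were removed (603). The pair of a cell is its 2 most abundant hashtags, where the second reaches 5 × (the third + 1) UMIs and the pair has at least 100 cells, and 1087 cells had none, which is meant to remove droplets with cells of different pairs. Doublets within a pair cannot be seen, and no other doublet removal was done. Counts were summed over the cells of a pair and scaled to CPM, with exact Poisson, conditional ratio and Clopper-Pearson intervals. A span sets the lowest count to at least 3. Full values are given for PSMB5, PSMB6 and PSMB7, the 5 members with the largest and the 3 with the smallest span, and any other member may be named with its span. PSMA7 and the pairs singled out were chosen after their values were seen. The members and all lists were chosen with earlier results of these data known. The alternatives changed the filter on cells, the pair rule, thinning, scaling, cell weights and the count minimum. The calculations were tested on simulated data. Python 3.11.15, numpy 2.4.6, scipy 1.17.1 and pandas 2.3.3 were used. Loci overlapping a member were read from GENCODE annotation on GRCh38. Copies of members such as processed pseudogenes were not analysed here, and reads shared with them could change the counts of PSMA2, PSMA3, PSMA6, PSMB3, PSMB7, PSMC1, PSMD4, PSMD7, PSMD8, PSMD10 and PSMD12.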

Additional observations from a re-analysis of the deposited data

Results flagged for a closer look

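Constitutive proteasome transcripts were also present in barcodes that no comparison between pairs used. The 603 barcodes that failed the cell filter held 16094 UMIs of the members, 9625 CPM of UMIs without mitochondrial genes (9476 to 9774), where a count of 0 allows up to 1.79. The 1087 cells without a hashtag pair held 11264 CPM on the same scale (11234 to 11294), where a count of 0 allows up to 0.0630. Cells with a pair held 11404 CPM (11387 to 11420). Whether the transcripts in barcodes that failed the filter came from damaged cells or from free RNA was not tested.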

How the results depend on the processing

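No paired analysis was possible because the pool had no replicates. The median span of the members, 1.34 as reported, was 1.24 to 1.40 under 9 alternatives. The 1.24 came from the filter on 2000 genes and 10% mitochondrial UMIs. The next lowest was 1.27, by the second highest over the second lowest pair. The count of members that reached 1.5-fold, 11 of 34 as reported against 53.7% of all genes, was 10 to 12 under 9 alternatives. It was 4 when cells under 2000 genes or over 10% mitochondrial UMIs were removed. No share over all genes was computed for these alternatives, so these counts do not show whether members moved apart from other genes. By the second highest over the second lowest pair the count was 7 of 34, against 35.5% of all genes. The filter on 2000 genes and 10% mitochondrial UMIs left 6 of the 18 pairs, and PSMA3, PSMA4, PSMA5 and PSMA6 reached 1.5-fold. Its highest and lowest values are taken over those 6 pairs only, so they cannot be set directly against values over 18 pairs. Spans there were 1.38 for the alpha sum, 1.09 for the catalytic beta sum, 1.19 for the other beta sum and 1.16 for the non-ATPase sum. The highest shares were 51.4% (PSMB8), 69.8% (PSMB9) and 54.7% (PSMB10), the lowest share of PSMB9 was 17.1%, and rho with heat shock genes was 0.168. Without a filter the alpha sum spanned 1.59 and the ATPase sum 1.21. With size factors by the median of ratios, which moved the 2 most affected pairs (1+5 and 7+8) apart by 0.09 on the log2 scale, the alpha sum spanned 1.65, the other beta sum 1.41 and the ATPase sum 1.14. Thinned cells gave 1.19 for the catalytic beta sum, 1.28 for the non-ATPase sum and a lowest PSMB9 share of 11.7%. The mean over cells gave 1.37 for the other beta sum and 1.28 for the non-ATPase sum. Without thinning, rho was 0.793, 0.822 and 0.800 between subunit groups, 0.522, 0.437 and 0.438 against the inducible subunits, and 0.810 and 0.874 against heat shock and housekeeping genes. The cause of these differences was not tested. Of 272 recomputed spans of single members, 234 lay inside the counting interval of the main value and 14 crossed 1.5-fold. The 272 include the spans from the filter that left 6 pairs. Spans of PSMD5 and PSMD10 rest on few UMIs, and differences between pairs have no replicate at any depth.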

Other observations

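Ranked by their alpha sum, the 18 hashtag pairs fell into steps, which were noticed after the values were seen and were not tested. Pairs 6+8, 7+8, 4+7, 5+6, 3+7, 5+8 and 2+5 held 4684, 4639, 4629, 4620, 4544, 4466 and 4243 CPM of alpha transcripts. Pairs 2+8, 3+4 and 2+6 held 3797, 3784 and 3730 CPM. Pairs 3+5, 5+7, 1+6, 1+4, 1+3, 2+4, 1+2 and 1+5 held 3340, 3271, 3205, 3204, 3180, 3128, 3091 and 3025 CPM.

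The summed level of PSMB8, PSMB9 and PSMB10 had the same pairs at its 7 highest and at its 10 highest places. In the order given above, it was 2203, 2267, 1640, 1601, 1575, 2144 and 1910 CPM in the 7 highest pairs and 919.3, 937.9 and 905.9 CPM in the next. It was 266.0, 284.8, 471.1, 457.2, 471.3, 287.7, 323.5 and 210.1 CPM in the rest. The orders within these sets differed: pair 2+5 ranked 7 by alpha transcripts and 4 by the inducible sum, and pair 5+8 ranked 6 and 3. Pairs 3+5 and 5+7 ranked 11 and 12 by alpha transcripts and 17 and 16 by the inducible sum. These pairs were also the 7 highest and the 10 highest of 3 other sums. The sums were those of the activators and inhibitor, the assembly chaperones and the beta subunits without a proteolytic site. The regulatory particle had another order, with pair 3+5 first, pair 7+8 at place 10 and pair 1+5 at place 5.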
